A study of Mus musculus with 24 samples.

Results

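Chaperones of the endoplasmic reticulum (ER), the sensors of its unfolded protein response and the genes of ER-associated degradation were followed in mouse multiple myeloma lines in bortezomib, an inhibitor of the proteasome. The 33 genes were taken by symbol from a list of these functions, with 17 chaperones and folding factors, 3 sensors and transcription factors, 11 degradation genes and 2 subunits of the translocon, the channel into the ER. Of these, 32 had a probe named for them, Dnajb11 being the exception, and 27 could be tested among 11062 genes. The probes of Canx, Derl1, Edem3 and Uggt1 stood above background on 0 arrays and that of Manf on 1, so these 5 genes were not tested and are given no level. Those tested were 13 chaperones and folding factors, 3 sensors, 9 degradation genes and both translocon subunits.

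The study measured total RNA on 24 Illumina bead arrays, 6 for each of 4 lines. All 4 lines come from double transgenic animals carrying Bcl-XL and Myc on a mixed FVBN and BL/6 background. The labels call 595sp and 638bm sensitive to bortezomib and call 595sp VR and 638bm VR resistant. Bortezomib was given at 33 nM, and every line was read untreated (0 h) and at 2, 8, 16 and 24 h, on 1 array each but 2 for 24 h. The labels do not say how the VR lines were made, and each was set against the line whose name it shares. In 638bm VR, 4 of the 6 samples carry a time in 1 label that disagrees with the title, and the title was used. The replicates of an arm are its 2 lines (n = 2). The labels name no separate cultures, so p-values measure only the spread between these samples. That spread is pooled for each gene over all lines and times. An SE or p-value is therefore not the spread between the 2 lines of an arm in a given contrast.

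On an array, 15267 to 17530 of 45281 probes stood above background. Precision is limited by how few arrays there are. The arrays of a line at 24 h differed with an SD of 0.18 to 0.26 log2 units over all genes, and of 0.14 to 0.30 over the 27 members. Of 8 plasma cell markers with a probe, Sdc1, Irf4, Mzb1, Pou2af1 and Slamf7 stood above background on all 24 arrays, and Prdm1, Tnfrsf17 and Jchain on 0. Among markers of other cells, Cd22 (B cells) and Pecam1 (endothelium) were seen on all 24 arrays, Cd3g (T cells) on 12 and Csf1r (myeloid cells) on 11. The B cell markers Pax5 and Ms4a1 were seen on 8 and 3 arrays, and the T cell markers Cd3d, Cd3e and Cd4 on 7, 3 and 1. Itgam (myeloid cells) was seen on 1 array and Hba-a1 (erythroid cells) on 5. Lyz2, Adgre1, S100a8, Cd8a, Col1a1, Col3a1, Cdh5, Epcam and Krt18 were seen on 0.

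The ER folds secreted and membrane proteins, and plasma cells, which secrete antibody, carry a large one. When unfolded proteins build up in it, the sensors Ire1, Atf6 and Perk start the unfolded protein response, in which Xbp1 and Atf6 switch on genes of chaperones and of degradation. ER-associated degradation passes misfolded proteins back to the cytosol, where ubiquitin ligases mark them and the proteasome, the enzyme that bortezomib blocks, takes them apart.

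Several of the promoters carry a shared sequence, shown here because it is the letter pattern through which the response is known to act on chaperone genes. The ER stress response element is spelled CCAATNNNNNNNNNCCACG. A promoter window was found for 27 members, not all of them tested. Of these windows from RefSeq (250 bases before to 50 after the start site, build GRCm38.p6), those of 9 members held it on either strand, which is 33.3%. Manf, Hyou1, Atf6, Derl1, Erlec1 and Sec61a1 had no entry. Among 27025 genes 37 held it, or 0.137%. A second form, ATTGGNCCACG, stood in the windows of Dnajb11 and Herpud1, 7.41% of the members and 0.0444% of all genes. ATTGG is CCAAT read on the other strand, and no member window held both forms. The 10 matches of the first form are given below in the direction of the element, with its fixed letters in capitals.
Hspa5, 65 bases before the start site, chr2:34772025-34772043: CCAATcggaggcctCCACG
Hsp90b1, 212 bases before the start site, chr10:86705638-86705656: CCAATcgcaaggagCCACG
Hsp90b1, 107 bases before the start site, opposite strand, chr10:86705533-86705551: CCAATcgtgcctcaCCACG
Calr, 162 bases before the start site, opposite strand, chr8:84847075-84847093: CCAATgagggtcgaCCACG
Canx, 145 bases before the start site, chr11:50325800-50325818: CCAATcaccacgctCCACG
Pdia6, 98 bases before the start site, chr12:17266491-17266509: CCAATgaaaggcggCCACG
Creld2, 126 bases before the start site, opposite strand, chr15:88819520-88819538: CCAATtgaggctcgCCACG
Dnajc3, 105 bases before the start site, chr14:118937827-118937845: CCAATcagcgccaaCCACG
Syvn1, 44 bases before the start site, chr19:6046532-6046550: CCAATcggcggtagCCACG
Derl3, 156 bases before the start site, opposite strand, chr10:75893242-75893260: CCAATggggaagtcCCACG
The 9 spacer letters differ from site to site. The sites lie on both strands, between 44 and 212 bases before the start.

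To set a chaperone promoter beside one of a degradation gene, the 250 bases before the start site of 4 genes are printed 5′ to 3′ on the gene's strand, with the matches in capitals. On the plus strand lie Hspa5 (chr2:34771840-34772089) and Syvn1 (chr19:6046326-6046575). On the minus strand lie Hsp90b1 (chr10:86705445-86705694) and Calr (chr8:84846932-84847181).
Hspa5: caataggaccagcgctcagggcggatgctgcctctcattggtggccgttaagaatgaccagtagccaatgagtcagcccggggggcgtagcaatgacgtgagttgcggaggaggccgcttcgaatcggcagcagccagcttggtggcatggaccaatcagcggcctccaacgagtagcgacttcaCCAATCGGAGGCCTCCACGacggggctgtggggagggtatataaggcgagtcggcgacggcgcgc
Hsp90b1: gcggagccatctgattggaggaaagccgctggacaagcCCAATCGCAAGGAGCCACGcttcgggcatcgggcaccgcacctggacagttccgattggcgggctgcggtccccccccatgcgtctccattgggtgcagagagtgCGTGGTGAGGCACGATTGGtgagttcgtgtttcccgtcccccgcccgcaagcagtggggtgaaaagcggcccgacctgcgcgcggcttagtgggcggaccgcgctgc
Calr: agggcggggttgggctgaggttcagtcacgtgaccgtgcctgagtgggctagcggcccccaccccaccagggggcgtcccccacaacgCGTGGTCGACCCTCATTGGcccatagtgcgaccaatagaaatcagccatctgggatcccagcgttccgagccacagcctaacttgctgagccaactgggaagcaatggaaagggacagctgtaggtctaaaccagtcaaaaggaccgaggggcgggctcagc
Syvn1: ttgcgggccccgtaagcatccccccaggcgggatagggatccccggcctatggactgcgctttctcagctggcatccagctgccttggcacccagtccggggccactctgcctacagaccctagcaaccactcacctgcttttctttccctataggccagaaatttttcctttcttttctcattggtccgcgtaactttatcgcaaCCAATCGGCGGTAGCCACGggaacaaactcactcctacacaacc
A match is a description of letters and does not show that a factor binds there. The element was present both in genes that rose at 8 h (Hspa5, Pdia6 and Creld2) and in Syvn1, which did not pass a test for a rise at any time.

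The time course of the members differed between lines, as the map of changes by gene, line and time shows. In 595sp, 18 of the 27 members had their highest level at 8 h and 20 their lowest at 24 h, against 15.4% and 22.8% of all genes. In 638bm the highest level fell on 8 h in 6 members and the lowest on 24 h in 9, against 17.9% and 19.4% of all genes. In 595sp VR 15 members and in 638bm VR 12 members were highest at 8 h, and the lowest level was at 0 h in 15 and 12. Of all genes 19.8% and 20.3% were highest at 8 h in these resistant lines, and 24.1% and 26.3% lowest at 0 h. In bulk RNA, fewer cells that express a gene and less of its RNA per cell cannot be told apart.

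**Figure D1:**
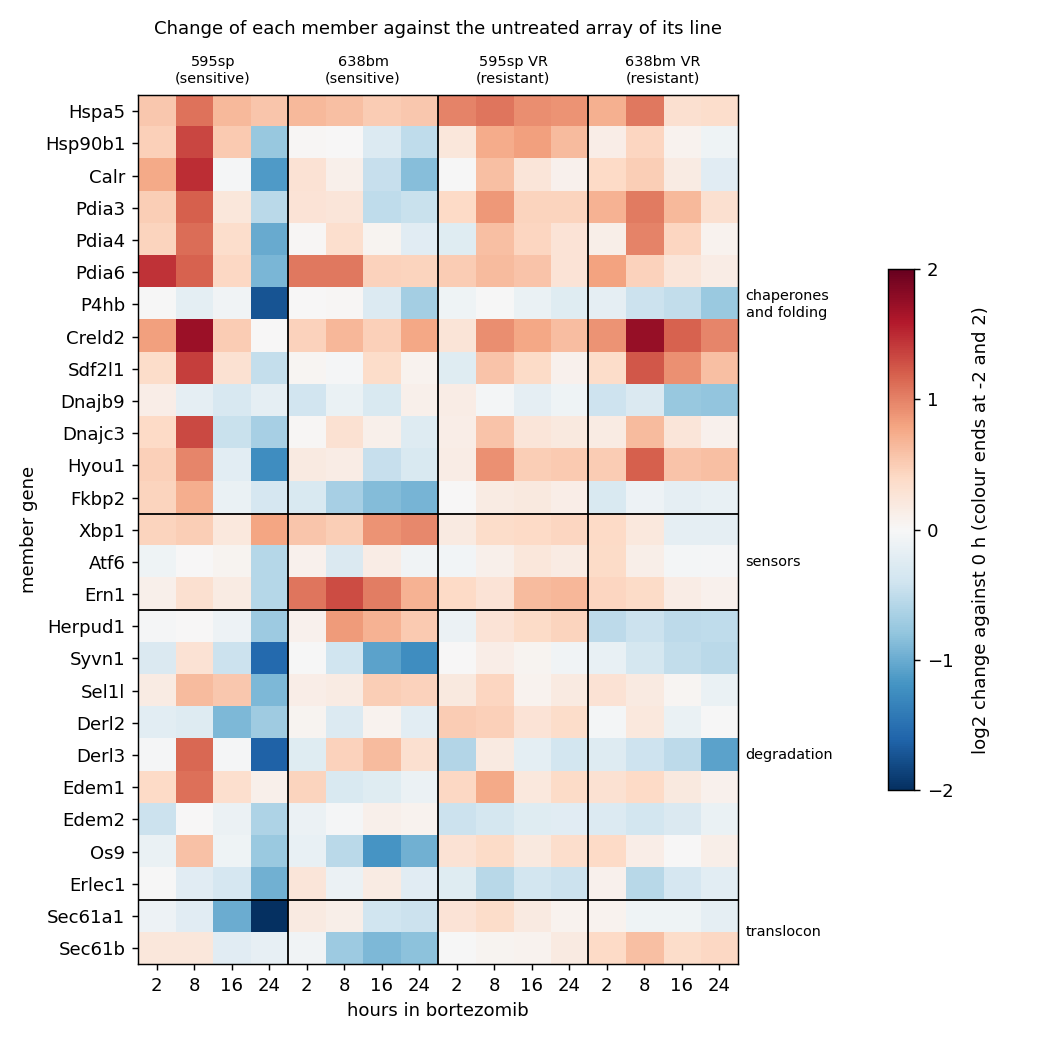
Log2 change of each of the 27 tested members (rows, grouped by class) against the untreated array of its line, at 2, 8, 16 and 24 h (columns, grouped by line); red is higher, blue is lower, and values past 2 take the end colour. The darkest blue stands in 595sp at 24 h, where Sec61a1 reads -2.06, and Creld2 reads 1.72 in 595sp and 1.74 in 638bm VR at 8 h.

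At 8 h, chaperones were the members that rose in both arms. In the sensitive lines Hspa5, Pdia6 and Creld2 rose, by 1.8-fold, 2.17-fold and 2.28-fold. In the resistant lines Hspa5, Pdia3, Creld2 and Hyou1 rose, by 2.09-fold, 1.94-fold, 2.53-fold and 2.08-fold, the first from untreated arrays of which 1 of 2 was above background. No sensor, degradation gene or translocon subunit passed at 8 h in either arm (limma, Benjamini-Hochberg adjusted p under 0.05). The 3 of 27 members higher in the sensitive lines compare with 2.33% of all genes called higher, and the 4 of 27 in the resistant lines with 1.74%. The 13 chaperones had a median change of 0.72 log2 units in sensitive and 0.60 in resistant lines. That of the 9 degradation genes was 0.02 and -0.08, and that of all genes -0.01 and -0.0044.

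Each sensitive line carried a different share of this. The median change of the chaperones at 8 h was 1.17 in 595sp and 0.14 in 638bm, against 0.59 in 595sp VR and 0.63 in 638bm VR. Over all 27 members it was 0.64, 0.10, 0.38 and 0.21 in the same order. With 1 line of an arm left out, that arm rests on its other line alone, with the median just given. Without either resistant line, 0 members and 60 of 11062 genes were called higher in the sensitive arm, in fits with fewer degrees of freedom. Without either sensitive line, 8 members were higher and 1, Erlec1, lower in the resistant arm, where 401 genes were higher and 518 lower. With the cell line left out of the model, 0 members were called at 8 h in either arm. In that fit 1 of 11062 genes was higher and 0 lower in the sensitive arm, and 0 were called in the resistant arm. By blocks of 6 consecutive table columns, the 0 h and 8 h arrays share a block in 595sp and in 638bm VR. In 638bm and 595sp VR they do not, so time and block cannot be told apart there. The untreated array of 595sp VR shares no block with any treated array of that line. Over 12 alternative settings the sensitive call of Hspa5 held in 11, that of Creld2 in 10 and that of Pdia6 in 8. With the times of the disagreeing label for 638bm VR, 0 were called at 8 h in the resistant arm.

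Hspa5 encodes BiP, the main Hsp70 chaperone of the ER, which also holds the stress sensors inactive. Hspa5 in 595sp read 5.39 untreated, 5.93 at 2 h, 6.48 at 8 h, 6.03 at 16 h, and 5.47 and 6.42 on both 24 h arrays (log2 intensity). Hspa5 in 638bm read 6.15 untreated, 6.80 at 2 h, 6.75 at 8 h, 6.65 at 16 h, and 6.69 and 6.69 on both 24 h arrays. Every treated array of both lines lay above the untreated array of its line. Hspa5 in 595sp VR read 5.24 untreated, 6.23 at 2 h, 6.32 at 8 h, 6.17 at 16 h, and 6.03 and 6.24 on both 24 h arrays. Hspa5 in 638bm VR read 5.82 untreated, 6.54 at 2 h, 6.88 at 8 h, 6.15 at 16 h, and 6.07 and 6.27 on both 24 h arrays. Here too the 5 treated arrays of each line lay above the untreated one. In 595sp VR the untreated array lies in column block 1 and the treated ones in blocks 2 and 4, so time and block cannot be told apart. Its change was 0.85 ± 0.19 in the sensitive lines (log2 ± SE, limma adjusted p = 0.0184) and 1.07 ± 0.19 in the resistant lines (adjusted p = 0.00669) at 8 h. It was the 1 member called at 2 h, in the resistant lines (0.85 ± 0.19, limma adjusted p = 0.0407), where 0.434% of all genes were called higher, and that call held in 5 of 12 alternative settings. At 24 h it was still higher in the sensitive lines (0.55 ± 0.19, limma adjusted p = 0.0475), a call that held in 3 of 12 alternative settings. The probe is dim: 1 of the 2 untreated resistant arrays was above background, and the 24 h arrays of 595sp differed by 0.94. Of these, the array reading 5.47 shares column block 1 with the untreated one (5.39), and that reading 6.42 lies in block 4.

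Creld2 encodes an ER-resident protein with isomerase activity that is induced by ER stress. Creld2 in 595sp read 9.0 untreated, 9.82 at 2 h, 10.72 at 8 h, 9.52 at 16 h, and 8.91 and 9.09 on both 24 h arrays. Creld2 in 638bm read 9.68 untreated, 10.14 at 2 h, 10.34 at 8 h, 10.15 at 16 h, and 10.55 and 10.35 on both 24 h arrays. The first line was back at its untreated level by 24 h, while the second stayed above it on every array. Creld2 in 595sp VR read 8.92 untreated, 9.18 at 2 h, 9.86 at 8 h, 9.69 at 16 h, and 9.56 and 9.51 on both 24 h arrays. Creld2 in 638bm VR read 8.36 untreated, 9.26 at 2 h, 10.10 at 8 h, 9.54 at 16 h, and 9.45 and 9.23 on both 24 h arrays. All treated arrays of the resistant lines lay above the untreated array of their line, with the highest level at 8 h in both. The change at 8 h was 1.19 ± 0.29 in sensitive (limma adjusted p = 0.0278) and 1.34 ± 0.29 in the resistant lines (adjusted p = 0.0193). A second probe read 1.12 (adjusted p = 0.0694, not passing) and 1.45 (adjusted p = 0.0268).

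Pdia6 encodes a protein disulfide isomerase that works with BiP. Pdia6 in 595sp read 7.26 untreated, 8.71 at 2 h, 8.43 at 8 h, 7.68 at 16 h, and 6.39 and 6.31 on both 24 h arrays. Pdia6 in 638bm read 7.48 untreated, 8.53 at 2 h, 8.54 at 8 h, 7.94 at 16 h, and 7.96 and 7.89 on both 24 h arrays. Both lines were already near their highest level at 2 h, and 595sp ended below its untreated level while 638bm did not. Pdia6 in 595sp VR read 6.47 untreated, 6.98 at 2 h, 7.10 at 8 h, 7.04 at 16 h, and 6.77 and 6.71 on both 24 h arrays. Pdia6 in 638bm VR read 6.44 untreated, 7.25 at 2 h, 6.90 at 8 h, 6.68 at 16 h, and 6.59 and 6.60 on both 24 h arrays. Both resistant lines were highest at 2 h or 8 h and lay below both sensitive lines at 0, 2, 8 and 16 h. At 8 h the change was 1.11 ± 0.29 in the sensitive lines (limma adjusted p = 0.0365) and 0.55 ± 0.29 in the resistant lines (adjusted p = 0.331). Its probes disagreed: the second read 0.38 in the sensitive lines, not passing, and 0.91 in the resistant lines, passing. At 24 h in the sensitive lines the second probe passed at -0.81 (limma adjusted p = 0.0172), where the first read -0.23 ± 0.29 and did not. The change at 2 h in the sensitive lines was 1.25 ± 0.29 and did not pass (limma adjusted p = 0.164). At 2 h, 0 members and 0.0542% of all genes were called in this arm, and 5 members and 8.19% of all genes had an unadjusted p under 0.05.

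Pdia3 encodes ERp57, the disulfide isomerase that partners calreticulin on glycoproteins. Pdia3 in 595sp read 12.30 untreated, 12.80 at 2 h, 13.50 at 8 h, 12.53 at 16 h, and 11.73 and 11.78 on both 24 h arrays. Pdia3 in 638bm read 12.52 untreated, 12.80 at 2 h, 12.77 at 8 h, 12.01 at 16 h, and 12.17 and 11.98 on both 24 h arrays. In 595sp the level at 8 h was 1.20 above and at 24 h 0.54 below the untreated one, and 638bm moved by 0.25 and -0.44. Pdia3 in 595sp VR read 11.37 untreated, 11.76 at 2 h, 12.24 at 8 h, 11.82 at 16 h, and 11.71 and 11.91 on both 24 h arrays. Pdia3 in 638bm VR read 11.23 untreated, 11.93 at 2 h, 12.28 at 8 h, 11.88 at 16 h, and 11.54 and 11.56 on both 24 h arrays. Every treated resistant array lay above the untreated array of its line. The change at 8 h was 0.96 ± 0.22 in the resistant lines (limma adjusted p = 0.0259) and 0.72 ± 0.22, not passing, in the sensitive lines (adjusted p = 0.0714).

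Hyou1 encodes Grp170, which exchanges the nucleotide on BiP. Hyou1 in 595sp read 7.61 untreated, 8.09 at 2 h, 8.59 at 8 h, 7.40 at 16 h, and 6.35 and 6.37 on both 24 h arrays. Hyou1 in 638bm read 8.52 untreated, 8.69 at 2 h, 8.66 at 8 h, 8.07 at 16 h, and 8.31 and 8.10 on both 24 h arrays. Over the first 8 h the first line changed by 0.98 and from 8 h to 24 h by -2.23, and the second by 0.14 and -0.45. Hyou1 in 595sp VR read 6.76 untreated, 6.91 at 2 h, 7.68 at 8 h, 7.26 at 16 h, and 7.37 and 7.20 on both 24 h arrays. Hyou1 in 638bm VR read 6.31 untreated, 6.81 at 2 h, 7.50 at 8 h, 6.87 at 16 h, and 6.91 and 6.91 on both 24 h arrays. Treated arrays of both resistant lines were all above the untreated one. The change at 8 h was 1.06 ± 0.28 in the resistant lines (limma adjusted p = 0.0424), a call that held in 6 of 12 alternative settings, and 0.56 ± 0.28 in the sensitive lines (adjusted p = 0.261).

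The sensors gave smaller or less even values at 8 h. Xbp1 encodes the transcription factor made when Ire1 splices its RNA, and the array annotation does not say whether the probe separates the spliced form. Xbp1 in 595sp read 10.95 untreated, 11.40 at 2 h, 11.44 at 8 h, 11.17 at 16 h, and 11.88 and 11.61 on both 24 h arrays. Xbp1 in 638bm read 9.97 untreated, 10.53 at 2 h, 10.46 at 8 h, 10.87 at 16 h, and 10.97 and 10.90 on both 24 h arrays. Both sensitive lines ended at their highest level. Xbp1 in 595sp VR read 10.18 untreated, 10.37 at 2 h, 10.55 at 8 h, 10.58 at 16 h, and 10.60 and 10.63 on both 24 h arrays. Xbp1 in 638bm VR read 11.10 untreated, 11.51 at 2 h, 11.31 at 8 h, 10.93 at 16 h, and 10.92 and 10.93 on both 24 h arrays. The resistant lines parted, 595sp VR ending above and 638bm VR below its untreated level. At 24 h Xbp1 was higher in the sensitive lines by 0.88 ± 0.21 (limma adjusted p = 0.00818), and it changed by 0.49 ± 0.21 at 8 h, which did not pass (adjusted p = 0.206).

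Ern1 encodes Ire1 itself, the sensor with kinase and RNase activity. Ern1 in 595sp read 6.62 untreated, 6.72 at 2 h, 6.94 at 8 h, 6.79 at 16 h, and 5.94 and 6.16 on both 24 h arrays. Ern1 in 638bm read 6.71 untreated, 7.78 at 2 h, 8.01 at 8 h, 7.73 at 16 h, and 7.38 and 7.44 on both 24 h arrays. The change at 8 h was 0.33 in the first line and 1.30 in the second. Ern1 in 595sp VR read 5.09 untreated, 5.50 at 2 h, 5.38 at 8 h, 5.73 at 16 h, and 5.81 and 5.71 on both 24 h arrays. Ern1 in 638bm VR read 6.48 untreated, 6.90 at 2 h, 6.87 at 8 h, 6.63 at 16 h, and 6.43 and 6.69 on both 24 h arrays. The resistant lines lay below the sensitive line of the same origin on every array, and 1 of the 2 untreated resistant arrays stood above background. At 8 h the change in the sensitive lines was 0.81 ± 0.25 and did not pass (limma adjusted p = 0.0682). Atf6, a membrane-bound transcription factor released by cleavage in the Golgi, was above background on 9 of 24 arrays. Atf6 in 595sp read 5.61 untreated, 5.52 at 2 h, 5.63 at 8 h, 5.66 at 16 h, and 5.16 and 4.92 on both 24 h arrays. Atf6 in 638bm read 5.54 untreated, 5.63 at 2 h, 5.26 at 8 h, 5.69 at 16 h, and 5.38 and 5.57 on both 24 h arrays. Of those 9 arrays 8 are of these sensitive lines. Atf6 in 595sp VR read 5.14 untreated, 5.08 at 2 h, 5.23 at 8 h, 5.37 at 16 h, and 5.42 and 5.17 on both 24 h arrays. Atf6 in 638bm VR read 5.24 untreated, 5.62 at 2 h, 5.35 at 8 h, 5.20 at 16 h, and 5.25 and 5.18 on both 24 h arrays. Of the resistant arrays, 1 at 2 h stood above background, and Atf6 passed no test.

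**Figure D2:**
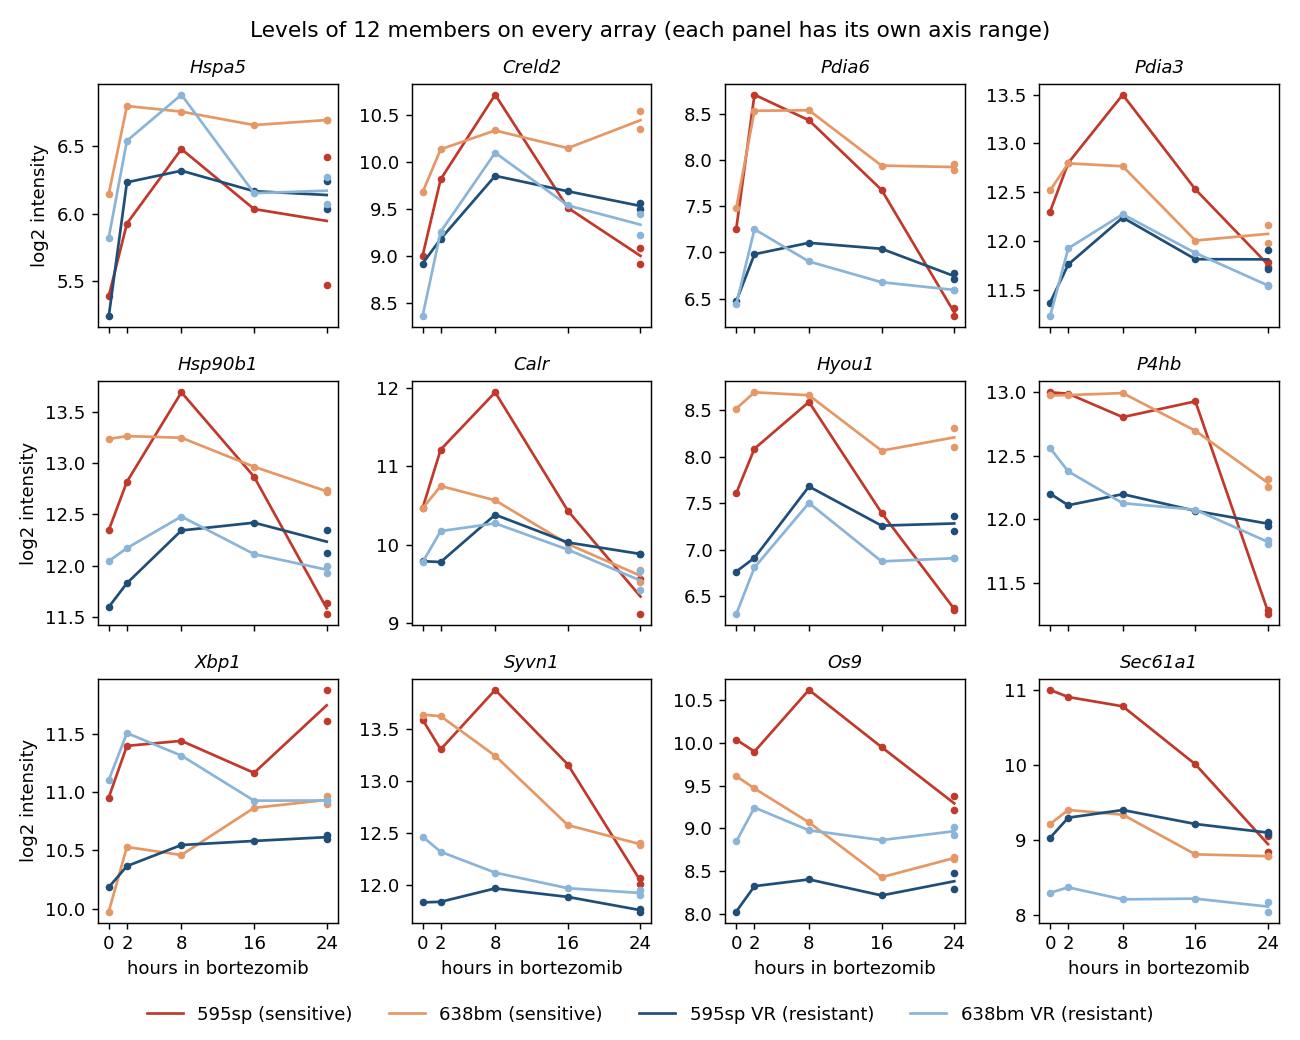
Log2 intensity of 12 members against hours in bortezomib; points are single arrays, lines join the mean at each time, and each panel has its own axis range. 595sp peaks at 8 h in Creld2, Pdia3, Hsp90b1, Calr and Syvn1 and is lower at 24 h. Hsp90b1 spans 11.53 to 13.69 in 595sp and 11.60 to 12.42 in 595sp VR.

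From 8 h to 24 h members fell in the sensitive lines. The class median was -1.22 for chaperones, -0.53 for degradation genes, -0.72 for the translocon and -0.19 for sensors, differences between classes that were not tested. Where a member had risen by 8 h, the contrast asks how far that rise was kept, and it rests on the same 8 h arrays as the rise. Of 27 members 12 were lower and 0 higher (limma adjusted p under 0.05), where 6.46% of all genes were called lower. They were 8 of 13 chaperones, 3 of 9 degradation genes and 1 of 2 translocon subunits, and 0 of 3 sensors. Among them P4hb, Syvn1, Sec61a1 and Os9 had changed by -0.09, -0.05, -0.05 and 0.02 at 8 h. In the arm as a whole these had no early rise to keep. Calr fell 3.45-fold, Derl3 2.73-fold, Pdia6 2.55-fold, Syvn1 2.54-fold and Hsp90b1 2.49-fold. The median change of the members was -0.80, against 0.08 over all genes tested, and 25 of 27 members were negative.

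The size of the fall rested on 595sp. In this line the members' median was -1.53 with 25 of 27 negative, and in 638bm it was -0.26 with 18 of 27 negative. The 12 members called lay between -2.77 and -1.32 in 595sp and between -0.96 and -0.13 in 638bm, the lines whose values picked them. In the resistant lines the same 12 lay between -0.55 and -0.02 (595sp VR) and between -0.92 and -0.01 (638bm VR). Fits without 595sp or without 638bm rest on the other sensitive line alone, with the median just given. Without 595sp VR or without 638bm VR, 5 members were called lower, where 219 of 11062 genes were. These fits have 4 residual degrees of freedom instead of 8 and a spread from fewer lines. Why fewer members passed was not tested. With the cell line left out of the model, or with blocks of 6 consecutive table columns added to it, 0 members were called. In both of these fits 0 of all 11062 genes were called either way, so the members were not singled out. The 8 h array and the first 24 h array of each sensitive line lie in the same column block, and between these alone 26 of 27 members were negative in 595sp (median -1.51) and 18 of 27 in 638bm (median -0.29). The 8 h value of each line is a single array.

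Array quality and plasma cell markers were read beside this fall. The 8 h array of 595sp had 16754 probes above background and its 24 h arrays 16996 and 16309. Of the 5 plasma cell markers seen on all arrays, 3 were lower at 24 h than at 8 h in 595sp, from -1.33 (Slamf7) to 0.55 (Irf4), and 4 in 638bm, from -1.04 (Irf4) to 0.07 (Pou2af1). In the resistant lines these markers changed by -0.25 to 0.46. Their part in the result was not tested.

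Calr encodes calreticulin, the soluble lectin chaperone of the ER. Calr in 595sp read 10.46 untreated, 11.22 at 2 h, 11.95 at 8 h, 10.43 at 16 h, and 9.56 and 9.12 on both 24 h arrays. Calr in 638bm read 10.46 untreated, 10.75 at 2 h, 10.57 at 8 h, 10.01 at 16 h, and 9.68 and 9.53 on both 24 h arrays. Both lines ended below their untreated array, and 595sp passed through the highest level of all 24 arrays at 8 h. Calr in 595sp VR read 9.79 untreated, 9.78 at 2 h, 10.38 at 8 h, 10.03 at 16 h, and 9.88 and 9.88 on both 24 h arrays. Calr in 638bm VR read 9.78 untreated, 10.17 at 2 h, 10.27 at 8 h, 9.94 at 16 h, and 9.66 and 9.42 on both 24 h arrays. At 24 h the 4 arrays of the resistant lines, from 9.42 to 9.88, overlapped with the 4 of the sensitive lines, from 9.12 to 9.68. The change from 8 h to 24 h was -1.79 ± 0.28 in the sensitive lines (limma adjusted p = 0.00249), and the change from 0 h to 24 h was -0.99 ± 0.28 (adjusted p = 0.0185). It was -0.62 ± 0.28 from 8 h to 24 h in the resistant lines, not passing.

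Hsp90b1 encodes Grp94, the Hsp90 chaperone of the ER. Hsp90b1 in 595sp read 12.35 untreated, 12.82 at 2 h, 13.69 at 8 h, 12.87 at 16 h, and 11.53 and 11.64 on both 24 h arrays. Hsp90b1 in 638bm read 13.23 untreated, 13.26 at 2 h, 13.25 at 8 h, 12.96 at 16 h, and 12.73 and 12.72 on both 24 h arrays. In the second line the change was 0.01 at 8 h and -0.52 from 8 h to 24 h. Hsp90b1 in 595sp VR read 11.60 untreated, 11.83 at 2 h, 12.34 at 8 h, 12.42 at 16 h, and 12.35 and 12.12 on both 24 h arrays. Hsp90b1 in 638bm VR read 12.04 untreated, 12.17 at 2 h, 12.48 at 8 h, 12.11 at 16 h, and 11.93 and 11.99 on both 24 h arrays. The resistant lines lay below their counterpart up to 16 h, and at 24 h 595sp VR lay above 595sp. The change from 8 h to 24 h was -1.31 ± 0.29 in the sensitive lines (limma adjusted p = 0.00976) and -0.31 ± 0.29 in the resistant lines, which did not pass.

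Pdia4 encodes ERp72, another disulfide isomerase. Pdia4 in 595sp read 10.70 untreated, 11.14 at 2 h, 11.83 at 8 h, 11.06 at 16 h, and 9.84 and 9.56 on both 24 h arrays. Pdia4 in 638bm read 9.33 untreated, 9.35 at 2 h, 9.67 at 8 h, 9.38 at 16 h, and 9.16 and 9.05 on both 24 h arrays. The level in 595sp was above that in 638bm on every array. Pdia4 in 595sp VR read 9.43 untreated, 9.18 at 2 h, 10.03 at 8 h, 9.87 at 16 h, and 9.75 and 9.66 on both 24 h arrays. Pdia4 in 638bm VR read 8.74 untreated, 8.85 at 2 h, 9.72 at 8 h, 9.17 at 16 h, and 8.83 and 8.77 on both 24 h arrays. Both resistant lines were highest at 8 h. It fell 2.54-fold between 8 h and 24 h in the sensitive lines (-1.34 ± 0.27, limma adjusted p = 0.00579). Pdia3 and Pdia6 changed over the same span by -1.22 ± 0.22 and -1.35 ± 0.29 (adjusted p = 0.00404 and 0.00874), and the second probe of Pdia6 also passed at -1.18.

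P4hb encodes protein disulfide isomerase proper, which is also a subunit of collagen prolyl hydroxylase. P4hb in 595sp read 13.00 untreated, 12.99 at 2 h, 12.80 at 8 h, 12.93 at 16 h, and 11.29 and 11.26 on both 24 h arrays. P4hb in 638bm read 12.97 untreated, 12.98 at 2 h, 12.99 at 8 h, 12.70 at 16 h, and 12.32 and 12.26 on both 24 h arrays. At 8 h the changes were -0.20 and 0.02, so both lines still lay near their untreated level. P4hb in 595sp VR read 12.20 untreated, 12.11 at 2 h, 12.20 at 8 h, 12.07 at 16 h, and 11.95 and 11.98 on both 24 h arrays. P4hb in 638bm VR read 12.56 untreated, 12.38 at 2 h, 12.13 at 8 h, 12.08 at 16 h, and 11.81 and 11.84 on both 24 h arrays. At 24 h both resistant lines lay between 595sp and 638bm. The change from 0 h to 24 h was -1.21 ± 0.24 in the sensitive lines (limma adjusted p = 0.00193) and -0.49 ± 0.24 in the resistant lines, not passing (adjusted p = 0.373). Between 8 h and 24 h it was -1.12 ± 0.24 in the sensitive lines (adjusted p = 0.00776).

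Dnajc3 encodes the BiP co-chaperone p58IPK. Dnajc3 in 595sp read 7.60 untreated, 7.99 at 2 h, 8.93 at 8 h, 7.16 at 16 h, and 7.04 and 6.82 on both 24 h arrays. Dnajc3 in 638bm read 7.78 untreated, 7.80 at 2 h, 8.09 at 8 h, 7.89 at 16 h, and 7.38 and 7.69 on both 24 h arrays. The change at 8 h was 1.33 in the first and 0.31 in the second. Dnajc3 in 595sp VR read 6.91 untreated, 7.05 at 2 h, 7.49 at 8 h, 7.16 at 16 h, and 7.06 and 7.18 on both 24 h arrays. Dnajc3 in 638bm VR read 8.16 untreated, 8.33 at 2 h, 8.79 at 8 h, 8.41 at 16 h, and 8.24 and 8.26 on both 24 h arrays. The 638bm VR arrays lay above all other lines at 0, 2, 16 and 24 h. Between 8 h and 24 h Dnajc3 fell in the sensitive lines by 2.43-fold (-1.28 ± 0.27, limma adjusted p = 0.00746), as did Hyou1 by 2.53-fold (-1.34 ± 0.28, adjusted p = 0.00693). The chaperones that did not pass over this span were Hspa5 (-0.30 ± 0.19), Creld2 (-0.80 ± 0.29), Sdf2l1 (-0.88 ± 0.31), Fkbp2 (-0.67 ± 0.23) and Dnajb9 (0.12 ± 0.20).

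Of the degradation genes, Syvn1, Os9, Derl3 and Erlec1 were called in a contrast. Syvn1 encodes Hrd1, the ubiquitin ligase of the ER membrane. Syvn1 in 595sp read 13.59 untreated, 13.30 at 2 h, 13.88 at 8 h, 13.16 at 16 h, and 12.06 and 12.01 on both 24 h arrays. Syvn1 in 638bm read 13.64 untreated, 13.62 at 2 h, 13.24 at 8 h, 12.57 at 16 h, and 12.40 and 12.38 on both 24 h arrays. Both lines ended more than 1 log2 unit below their untreated array. Syvn1 in 595sp VR read 11.83 untreated, 11.83 at 2 h, 11.96 at 8 h, 11.88 at 16 h, and 11.77 and 11.74 on both 24 h arrays. Syvn1 in 638bm VR read 12.46 untreated, 12.32 at 2 h, 12.12 at 8 h, 11.97 at 16 h, and 11.90 and 11.94 on both 24 h arrays. The resistant lines stayed below both sensitive lines at all 5 times. The change at 24 h was -1.40 ± 0.24 in the sensitive lines (limma adjusted p = 0.000718) and -0.31 ± 0.24 in the resistant lines, not passing (adjusted p = 0.616). Between 8 h and 24 h Syvn1 fell 2.54-fold in the sensitive lines (adjusted p = 0.00331).

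Os9 encodes a lectin that hands misfolded glycoproteins to the Hrd1 complex. Os9 in 595sp read 10.04 untreated, 9.90 at 2 h, 10.62 at 8 h, 9.95 at 16 h, and 9.21 and 9.37 on both 24 h arrays. Os9 in 638bm read 9.61 untreated, 9.47 at 2 h, 9.07 at 8 h, 8.43 at 16 h, and 8.64 and 8.67 on both 24 h arrays. At 8 h the lines had moved apart, by 0.58 and -0.54. Os9 in 595sp VR read 8.03 untreated, 8.33 at 2 h, 8.40 at 8 h, 8.22 at 16 h, and 8.29 and 8.48 on both 24 h arrays. Os9 in 638bm VR read 8.85 untreated, 9.24 at 2 h, 8.98 at 8 h, 8.86 at 16 h, and 8.92 and 9.01 on both 24 h arrays. All resistant 24 h arrays lay above the untreated array of their line, and all sensitive ones below it. The change at 24 h was -0.85 ± 0.25 in the sensitive lines (limma adjusted p = 0.0242), and from 8 h to 24 h it was -0.87 ± 0.25 (adjusted p = 0.0331).

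Erlec1 encodes the second lectin of this kind. Erlec1 in 595sp read 10.07 untreated, 10.06 at 2 h, 9.84 at 8 h, 9.73 at 16 h, and 9.20 and 9.03 on both 24 h arrays. Erlec1 in 638bm read 8.88 untreated, 9.12 at 2 h, 8.75 at 8 h, 9.04 at 16 h, and 8.68 and 8.60 on both 24 h arrays. At 24 h the change was -0.95 in the first and -0.23 in the second. Erlec1 in 595sp VR read 9.13 untreated, 8.89 at 2 h, 8.58 at 8 h, 8.76 at 16 h, and 8.76 and 8.64 on both 24 h arrays. Erlec1 in 638bm VR read 9.38 untreated, 9.47 at 2 h, 8.82 at 8 h, 9.05 at 16 h, and 9.13 and 9.21 on both 24 h arrays. Both resistant lines lay below their untreated array at 8, 16 and 24 h. The change at 24 h was -0.59 ± 0.18 in the sensitive lines (limma adjusted p = 0.0285). Its other probes read -0.28 and -0.50 and did not pass (adjusted p = 0.306 and 0.0588).

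Derl3 encodes a derlin, a membrane protein through which substrates leave the ER. Derl3 in 595sp read 7.93 untreated, 7.91 at 2 h, 9.08 at 8 h, 7.90 at 16 h, and 6.38 and 6.24 on both 24 h arrays. Derl3 in 638bm read 5.32 untreated, 5.08 at 2 h, 5.77 at 8 h, 5.96 at 16 h, and 5.49 and 5.79 on both 24 h arrays. From 8 h to 24 h the change was -2.77 in 595sp and -0.13 in 638bm, where the untreated and the 2 h array were not above background. Derl3 in 595sp VR read 6.32 untreated, 5.74 at 2 h, 6.50 at 8 h, 6.13 at 16 h, and 6.00 and 5.90 on both 24 h arrays. Derl3 in 638bm VR read 7.26 untreated, 7.00 at 2 h, 6.85 at 8 h, 6.74 at 16 h, and 6.38 and 6.00 on both 24 h arrays. The last line was below its untreated array at every later time. Over both sensitive lines this change was -1.45 ± 0.42 (limma adjusted p = 0.0321). The SE is pooled over all lines and times and does not show how far these 2 lines lie apart. Over this span Herpud1 (-0.53 ± 0.28), Sel1l (-0.61 ± 0.29), Derl2 (-0.19 ± 0.21), Edem1 (-0.41 ± 0.26), Edem2 (-0.26 ± 0.18) and Erlec1 (-0.42 ± 0.18) did not pass.

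Sec61a1 encodes the pore of the translocon. Sec61a1 in 595sp read 11.00 untreated, 10.90 at 2 h, 10.78 at 8 h, 10.01 at 16 h, and 8.83 and 9.05 on both 24 h arrays. Sec61a1 in 638bm read 9.21 untreated, 9.40 at 2 h, 9.33 at 8 h, 8.80 at 16 h, and 8.78 and 8.78 on both 24 h arrays. The first line differed from its untreated array by -0.99 at 16 h and -2.06 at 24 h, and the second by -0.40 and -0.43. Sec61a1 in 595sp VR read 9.02 untreated, 9.29 at 2 h, 9.40 at 8 h, 9.21 at 16 h, and 9.11 and 9.08 on both 24 h arrays. Sec61a1 in 638bm VR read 8.29 untreated, 8.36 at 2 h, 8.20 at 8 h, 8.21 at 16 h, and 8.17 and 8.04 on both 24 h arrays. The arrays of the resistant lines lay within 9.02 to 9.40 and within 8.04 to 8.36. The change at 24 h was -1.24 ± 0.27 in the sensitive lines (limma adjusted p = 0.00397), and from 8 h to 24 h it was -1.20 ± 0.27 (adjusted p = 0.0104). A dimmer probe read -0.25 at 24 h, not passing, and -0.89 from 8 h to 24 h, passing. Sec61b, the small beta subunit, read -0.48 ± 0.21 at 24 h and did not pass.

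**Figure D3:**
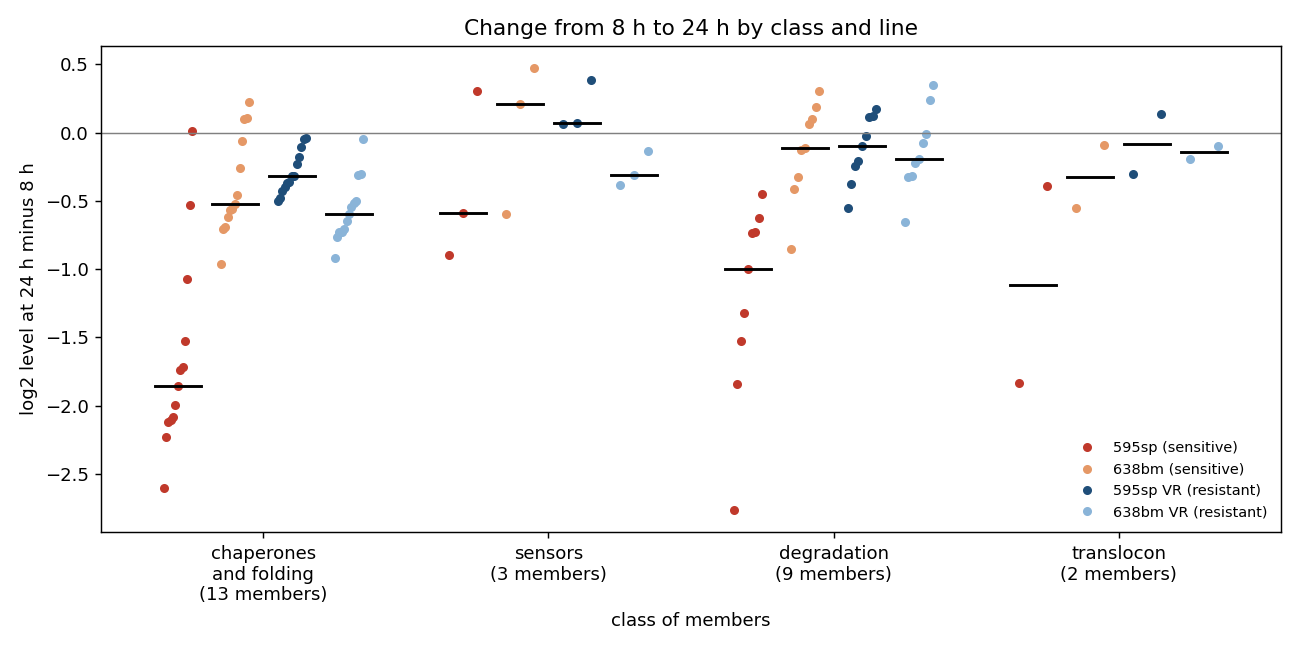
Log2 level at 24 h minus that at 8 h for each member (points), by class and line, with the median of the class as a black bar. The chaperone median is -1.86 in 595sp, -0.52 in 638bm, -0.32 in 595sp VR and -0.60 in 638bm VR. That of the sensors is -0.59, 0.21, 0.07 and -0.31.

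Against the untreated arrays, members at 24 h were split in the sensitive lines. Hspa5 and Xbp1 were higher, and Calr, P4hb, Syvn1, Os9, Erlec1 and Sec61a1 were lower, with Pdia6 lower by its second probe alone. These are 2 of 27 members higher, where 13.2% of all genes were, and 6 of 27 lower, where 9.95% were. Most members lay below 0 h, 23 of 27, with a median of -0.46 against 0.06 over all genes. The median was -0.71 in 595sp, with 23 of 27 negative, and -0.21 in 638bm, with 16 of 27 negative. Only in 595sp does a 24 h array share the column block of the 0 h array. In 638bm and both resistant lines, time and block cannot be told apart at 24 h. Without the cell line in the model 1 member was lower and 0 higher, where 87 and 63 of all genes were. With the column blocks added 0 members were called, where 183 of all genes were lower and 153 higher, and the members' median was -0.04. Without 595sp VR or without 638bm VR 3 members were lower, where 699 of 11062 genes were. In the resistant lines 0 of 27 members were called at 24 h, where 1.5% of all genes were, and the members' median was 0.14, or -0.02 without 595sp VR. At an unadjusted p under 0.05 were 3 members and 13.8% of all genes. At 16 h, 0 members were called in either arm, where 9.22% of all genes were called in sensitive and 1.38% in resistant lines. At 16 h 8 members had an unadjusted p under 0.05 in sensitive lines, where 23.4% of all genes had one, and 4 in resistant lines, where 14.2% had.

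From 8 h to 24 h the resistant lines gave 0 calls among all 11062 genes (0%), so the members were not singled out there. Of the members 23 of 27 and of the chaperones 13 of 13 were negative, with medians of -0.27 and -0.46 against 0.01 over all genes. The members' median was -0.06 with the other time label for 638bm VR and -0.05 with the column blocks added. In 638bm VR the 8 h array lies in column block 3 and both 24 h arrays in block 4, so time and block cannot be told apart there. Pdia4 changed by -0.62 ± 0.27, Calr by -0.62 ± 0.28, Pdia3 by -0.58 ± 0.22 and Hspa5 by -0.44 ± 0.19 in the resistant lines, each with an unadjusted p under 0.05, as 5.16% of all genes had, and an adjusted p of 0.886 or more.

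The difference between arms was tested directly, and no member passed at any time. At 2, 8 and 16 h, and from 8 h to 24 h, 0% of all genes were called by this test, and 0, 0 and 3 members had an unadjusted p under 0.05 at 2, 8 and 16 h, where 2.84%, 6.98% and 10.8% of all genes had one. At 24 h, 1.25% of all genes were called and 0 of 27 members, of which 10 had an unadjusted p under 0.05, as had 16.8% of all genes. For the change between 8 h and 24 h 11 members and 15.6% of all genes had one. Of the members, 24 of 27 changed more positively at 24 h in resistant than in sensitive lines, and the median difference was 0.54 against -0.06 over all genes. Hyou1 had the smallest p, with a difference of 1.34 ± 0.39 (limma adjusted p = 0.0977). For Syvn1 the difference was 1.09 ± 0.34 (adjusted p = 0.114) and for Sec61a1 1.19 ± 0.38 (adjusted p = 0.13). With arrays scaled to a common median, Hyou1 and Syvn1 passed, and that scaling moved the median difference of all genes from -0.06 to 0.05. Leaving out 638bm sets 595sp alone against both resistant lines. The members' median difference was then 0.89 at 24 h and 1.17 from 8 h to 24 h. Without 595sp these medians were 0.27 and 0.08.

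At 24 h, Pdia3, Pdia4, Dnajc3, Hyou1, Os9 and Sec61b lay below 0 h in both sensitive lines and above it in both resistant lines. This is 6 of 27 members, or 22.2%, where 4.18% of all genes did so. For Hyou1 the changes were -1.25 and -0.31 in sensitive and 0.52 and 0.60 in resistant lines. For Pdia3 they were -0.54 and -0.44 against 0.44 and 0.32. None of the 6 passed the test of the difference. In 638bm, 595sp VR and 638bm VR no 24 h array shares a column block with the 0 h array, so time and block cannot be told apart there. The same limit holds for the difference between arms at 24 h.

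Before treatment the members tended to be lower in the resistant lines. Of 27 members 22 had a negative difference, with a median of -0.60 against 0.09 over all genes. Syvn1 was called lower, with a difference of -1.76 in the 595sp pair and -1.17 in the 638bm pair (-1.47 ± 0.29, limma adjusted p = 0.0141), where 2.21% of all genes were called lower. A call here also needs at least 1 log2 unit in each pair, and Syvn1 missed that with arrays scaled to a common median (-1.12). It missed the adjusted p with the column blocks added (limma adjusted p = 0.0759). With 1 line left out, 1 pair is broken and an arm keeps 1 line. The members' median difference was then -0.40 without 595sp, -0.75 without 638bm, -0.42 without 595sp VR and -0.78 without 638bm VR. That of all genes stayed between 0.07 and 0.09. Pdia3 (-1.11 ± 0.24, adjusted p = 0.0216) and Sec61a1 (-1.44 ± 0.31, adjusted p = 0.0197) passed the p but not the size in each pair. This limma model takes the times of a line as independent values, so its p-values may be too small.

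Both untreated resistant arrays lay below both sensitive ones in 14 of 27 members, where 15.2% of all genes did so. They were Hsp90b1, Calr, Pdia3, Pdia6, P4hb, Creld2, Hyou1, Atf6, Ern1, Syvn1, Derl2, Edem2, Os9 and Sec61a1, which are 7 chaperones, 2 sensors, 4 degradation genes and the translocon pore. The difference in Hyou1 was -0.85 for the 595sp pair and -2.21 for the other. Some degradation genes differed between the pairs: Derl3 read -1.61 and 1.94, Herpud1 -1.70 and 0.25, Sel1l -1.81 and 0.11, and Edem1 -1.41 and 0.25. Untreated 638bm was not above background for Derl3. Syvn1, Derl2, Edem2 and Os9 were negative in both pairs. Signs also differed in chaperones, as in Sdf2l1 (0.73 and -1.54) and Dnajc3 (-0.69 and 0.38). Xbp1 also had opposite signs, with -0.77 and 1.13. By 24 h, 4 of 27 members were below in both resistant lines, Xbp1, Herpud1, Syvn1 and Edem2, where 14.8% of all genes were. In the 595sp pair the members' median difference went from -0.79 untreated to 0.15 at 24 h, and in the 638bm pair from -0.32 to -0.30.

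**Figure D4:**
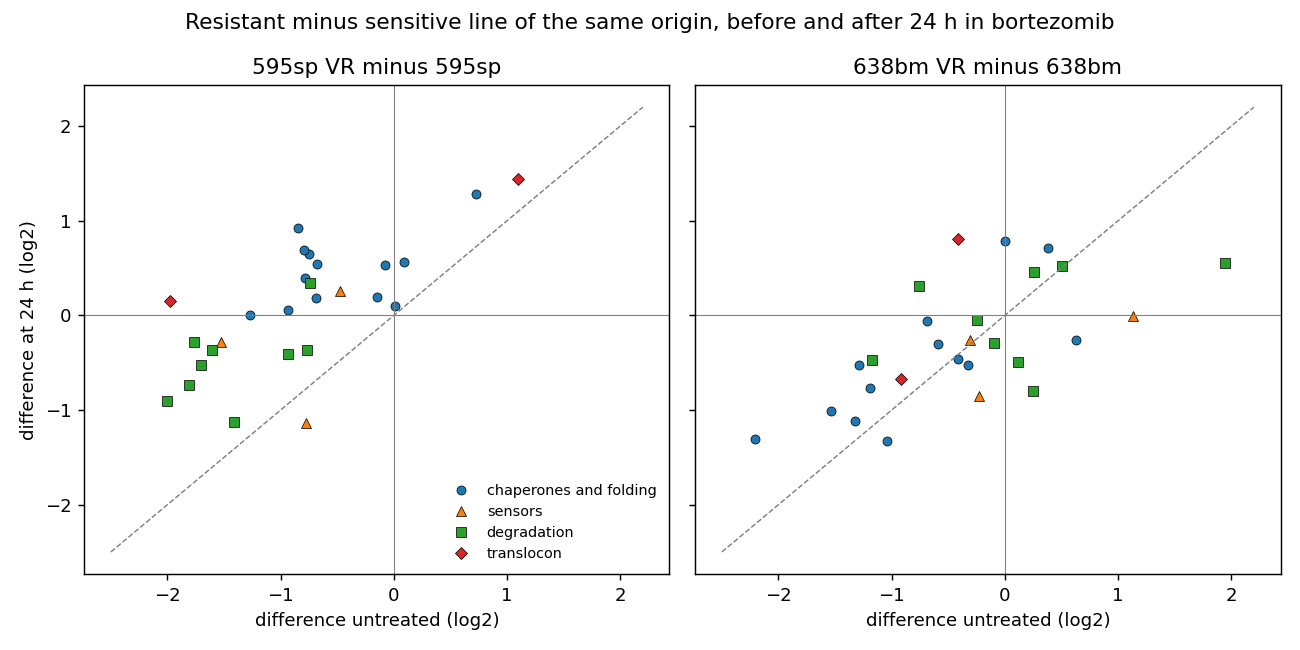
Difference of each member between the resistant line and the sensitive line of the same origin (log2), untreated on the x axis and at 24 h on the y axis; marks show the class and the dashed line marks equal differences. In the 595sp pair 23 of 27 members lie left of 0 untreated and 10 of 27 below 0 at 24 h, and in the 638bm pair 19 and 20.

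Members not named above ranged as follows. Sdf2l1, which binds BiP co-chaperones, changed at 8 h by 1.39 in 595sp, -0.02 in 638bm, 0.57 in 595sp VR and 1.25 in 638bm VR. It passed in neither arm. Edem1, a mannosidase-like protein that marks glycoproteins for degradation, changed by 1.10, -0.31, 0.76 and 0.40 in the same lines and also did not pass. Herpud1, a ubiquitin-like membrane protein of the Hrd1 complex, read 0.00, 0.86, 0.27 and -0.44 against 0 h at 8 h in that order of lines, and -0.73, 0.53, 0.44 and -0.51 at 24 h. Sel1l, the partner of Hrd1, read 0.40 ± 0.29 at 8 h and -0.21 ± 0.29 at 24 h in the sensitive lines. Dnajb9, a J-protein of the ER induced through Xbp1, changed by -0.41 to 0.15 at 2 h and by -0.28 to -0.04 at 8 h across the lines, and passed no test. Fkbp2, an ER prolyl isomerase, read -0.64 ± 0.23, Derl2 -0.46 ± 0.21 and Edem2 -0.28 ± 0.18 at 24 h in the sensitive lines, and no test of theirs passed.

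Other genes of the same pathways were read from lists beside the members. For the 24 h counts that follow, 9.95% of all genes were called lower and 13.2% higher. At 24 h in the sensitive lines, 9 of 14 other folding and redox enzymes were lower and 0 higher, led by Pdia5 (-1.43 ± 0.16), Txndc5 (-0.95 ± 0.16) and Fkbp11 (-1.26 ± 0.23). Of 15 other translocon and signal peptide genes 8 were lower and 0 higher, among them Tram1 (-1.20 ± 0.20), Ssr1 (-1.14 ± 0.20) and Srpr (-0.85 ± 0.18). Of 13 other degradation genes 3 were higher, Ufd1 (1.83 ± 0.23), Nploc4 (1.18 ± 0.21) and Ube2g2 (0.87 ± 0.21), and Faf2 was lower. Ufd1 and Nploc4 encode the adaptor with which the p97 ATPase pulls substrates out of the membrane, and both had already risen at 8 h, by 1.41 ± 0.23 and 1.03 ± 0.21. Nploc4 also rose in the resistant lines at 8 h (1.18 ± 0.21, limma adjusted p = 0.00584). Of 9 other signalling genes 4 were lower at 24 h and 1 higher, with Atf6b at -0.95 ± 0.18, Tmbim6 at -0.94 ± 0.18 and Creb3 at 1.20 ± 0.18.

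From 8 h to 24 h in the sensitive lines 17 of 51 of these genes were lower and 1 higher, where 6.46% and 7.72% of all genes were. Among them 8 of 15 translocon and signal peptide genes fell, with Ssr1 at -1.10 ± 0.20, and 1 of 13 degradation genes did. Pdia5 (1.29 ± 0.22, limma adjusted p = 0.0191) and Ssr1 (1.23 ± 0.28, adjusted p = 0.0453) passed the test of the difference between arms at 24 h, their changes being higher in the resistant lines. There Bhlha15, a transcription factor of secretory cells, fell at 8 h with a change of -1.84 ± 0.36 (adjusted p = 0.0112) and Erp44 rose by 0.82 ± 0.19 (adjusted p = 0.0252). Untreated, Dnajc1 (-2.20 ± 0.38) and Tmbim6 (-1.57 ± 0.19) were lower in the resistant lines.

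The element in the promoters was set beside these changes last. Of the 9 members whose window held the first form 8 could be tested, and 6 of them fell from 8 h to 24 h in the sensitive lines: Hsp90b1, Calr, Pdia6, Dnajc3, Syvn1 and Derl3. Of 15 tested members with a window and no match 4 fell, where 6.46% of all genes were called lower. The change was negative in 8 of 8 members with a match, in 13 of 15 without and in 41.0% of all genes. Outside the members, 28 genes held the element and 7 could be tested, of which 0 fell by the same test and 4 had a negative change. At 8 h in the sensitive lines the change was positive in 7 of the 8 members with a match, in 10 of the 15 without and in 2 of those 7 other genes. Over all genes it was positive in 48.5%. The windows of Pdia3, Pdia4, P4hb and Os9, which fell, do not hold these letters. The members were chosen with earlier results of these data known, and a link between element and change was not tested.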

How the data were processed

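The authors deposited average probe intensity per array (Illumina 1-colour bead arrays, biotin-labelled total RNA per the labels' protocols), not normalized, and a second intensity table normalized between arrays, with no log. Software and background handling are not given in the sources used here, and the deposited tables used here held no detection p or control probes. Intensities were background-corrected (normexp, offset 16), quantile normalized and taken to log2. A probe counted as above background past the mode of its array by 2.326 SD (a one-sided p of 0.01, with the SD mirrored from below the mode). Of 45281 probes 21750 were above on at least 2 arrays and kept. The platform annotation gave 34885 probes 1 symbol, 18 several and 10378 none. The probe with the highest mean stood for a gene, which left 11062 genes. Both 24 h arrays of a line were averaged, giving 20 values.

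R 4.3.3 and limma 3.58.1 fitted cell line plus arm by time (8 residual degrees of freedom), since the same line runs through all times, with Benjamini-Hochberg adjustment over all genes and calls at 0.05. The differences between the lines of an arm correlated across genes between times at 0.771 to 0.907 for sensitive and 0.823 to 0.925 for resistant lines. The untreated comparison fitted origin plus arm by time and also required 1 log2 unit in both pairs. The fits were tested on simulated data. Members and lists were chosen with earlier results of these data known. Every member is accounted for: those called in a response or difference, and Hspa5, Xbp1, Atf6 and Ern1, have values on every array, the others ranges, and of other pathway genes at most 3 per list and contrast are named, those with the smallest p among the called. Of the members, 13 had several kept probes, given where their calls differ. Promoters came from RefSeq (GRCm38.p6). Other backgrounds, scalings, filters, probe rules, time labels, single 24 h arrays, models and left-out lines were tried.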

Additional observations from a re-analysis of the deposited data

How the results depend on the processing

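No called change of a named member turned its direction under any alternative. Some alternatives could not turn it: leaving the cell line out of the model, or a line of the other arm out of the data, does not move an arm's own change. Of the named genes' results over 12 settings, 365 kept their side of the threshold, 77 no longer passed and 2 newly passed. With 1 line left out these numbers were 88, 58 and 2. Without the replicate block of cell line, the members higher at 8 h in the sensitive lines went from 3 to 0, those higher and lower at 24 h from 2 and 6 to 0 and 1, those lower from 8 h to 24 h from 12 to 0, and those higher in the resistant lines at 2 h and 8 h from 1 and 4 to 0 and 0. Over all genes the same counts went from 258 to 1, from 1457 and 1101 to 63 and 87, from 715 to 0, and from 48 and 193 to 0 and 0. The untreated call of Syvn1 held there. With column blocks added, which leaves 5 residual degrees of freedom, 0 members were higher and 0 lower at 24 h, 0 lower from 8 h to 24 h, 0 higher in the resistant lines at 2 h and 0 lower untreated. In the same order, 153, 183, 0, 54 and 128 of all genes were called. With median scaling, 1 member was called at 16 h in each arm, 1 was higher at 24 h in the sensitive lines, 2 differed between arms at 24 h and 0 were lower untreated. That scaling moved the calls over all genes from 258 higher and 334 lower to 114 and 532 at 8 h in the sensitive lines, from 854 and 715 to 1251 and 447 from 8 h to 24 h, and from 105 and 33 to 208 and 20 for the difference at 24 h. Of Hspa5 and Xbp1, 1 was higher at 24 h without background correction, with an offset of 50, in the authors' processed values, with no filter on dim probes, with the other time label for 638bm VR and with the first 24 h array only. The 1 member higher at 2 h in the resistant lines went to 0 without background correction, with an offset of 50, in the authors' processed values and with either 24 h array alone. The other time label also gave 0 members higher at 8 h in the resistant lines. The causes were not tested.

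With each line left out in turn, the members called ranged from 0 to 11 for higher at 8 h, 0 to 5 at 16 h, 0 to 1 for higher and 3 to 14 for lower at 24 h, and 0 to 20 for lower from 8 h to 24 h, all in the sensitive lines. In the resistant lines they ranged from 0 to 1 for higher at 2 h, 0 to 8 for higher at 8 h and 0 to 1 at 16 h. For the difference between arms they ranged from 0 to 7 at 24 h and from 0 to 16 from 8 h to 24 h, and for lower untreated from 4 to 9. In the fits with the most members called, calls over all genes rose too, except for the sensitive lines at 16 h and for higher at 24 h. These ranges alone therefore do not set the members apart from all genes. Untreated, the size rule then covers 1 pair instead of both, and Xbp1, Derl3 or Sec61b were called higher in some of these fits. Each arm rests on 2 lines with 1 array at most times. Hspa5, Atf6, Ern1 and Derl3 lie near background on some arrays, so small changes in them may go unmeasured.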
